A study of Mus musculus with 17 samples.

Results

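The uridine diphosphate glucuronosyltransferases (UGTs) and the glutathione S-transferases (GSTs) were described as a set in livers labelled as having or lacking hepatocyte GATA4, with and without an agonist of the liver X receptor (LXR). Members were all genes of the deposited normalized count table whose symbol begins with Ugt1, Ugt2, Ugt3, Gsta, Gstm, Gstp, Gstt, Gstk, Gstz or Gsto. This rule gave 44 of 24676 genes, 19 UGTs and 25 GSTs, and used no measured value. Of these, 40 reached 10 normalized counts in 4 or more libraries and were tested, while Gsta1, Gsta5, Gsto2 and Gstt4 stayed below that level. Gstm2-ps1 and Gstp-ps, both tested and counted among the GSTs, are annotated as processed pseudogenes.

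All mice were males of mixed strain, labelled 11 weeks old, and homozygous for a Gata4 allele flanked by loxP sites (Gata4 fl/fl). The 9 libraries labelled Gata4LKO came from mice that received AAV8-Tbg-Cre, an adeno-associated virus that expresses Cre recombinase from the hepatocyte promoter Tbg, at 10 weeks. The 8 control libraries came from mice given an empty AAV8, so Cre expression and the loss of Gata4 cannot be told apart. Beginning 1 week after the virus, mice were gavaged with 40 mg/kg GW3965, an LXR agonist, in canola oil at 17 h and 8 h before sacrifice, or with dimethylsulfoxide in canola oil, and were fasted for 4 h. The groups held 4 control vehicle, 4 Gata4LKO vehicle, 4 control GW3965 and 5 Gata4LKO GW3965 libraries, and bulk liver mRNA was sequenced. The labels do not say that each library was a separate mouse, so p-values measure the spread between libraries.

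UGTs and GSTs catalyse the conjugation phase of drug and steroid metabolism. UGTs are membrane proteins of the endoplasmic reticulum that transfer glucuronic acid from UDP-glucuronate to bilirubin, steroids, bile acids and drugs, and the conjugates leave through transporters of the ABC family. The UGT3A enzymes use other sugars. Cytosolic GSTs couple the tripeptide glutathione to electrophiles, including products of lipid peroxidation. Several members are known targets of the xenobiotic receptors CAR and PXR, of the oxidative stress factor NRF2, and of the sex-dependent growth hormone pattern.

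Upstream sequences of 3 members that changed with GW3965 are shown first, because 2 of them, Ugt2b36 and Ugt2b5, are neighbours on chromosome 5 that were both lower in libraries of GW3965-treated Gata4LKO livers, and Gsta2 was higher after GW3965. Each is the 250 bases before the RefSeq transcript start (build GRCm38.p6), from a table with an entry for 37 of the 44 members. Gsta4 had no entry there. All 3 genes shown lie on the minus strand. Capitals mark, on either strand, AGATAA and TGATAA (forms of the site read by GATA factors), TATAAA (the TATA box) and AGGTCA (the half-site read by many nuclear receptors).
Ugt2b5, chr5:87140341-87140590, minus strand: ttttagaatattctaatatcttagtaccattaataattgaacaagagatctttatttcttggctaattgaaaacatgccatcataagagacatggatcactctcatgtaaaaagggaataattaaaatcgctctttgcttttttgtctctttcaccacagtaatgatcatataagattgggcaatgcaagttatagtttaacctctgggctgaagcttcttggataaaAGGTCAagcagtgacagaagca
Ugt2b36, chr5:87092556-87092805, minus strand: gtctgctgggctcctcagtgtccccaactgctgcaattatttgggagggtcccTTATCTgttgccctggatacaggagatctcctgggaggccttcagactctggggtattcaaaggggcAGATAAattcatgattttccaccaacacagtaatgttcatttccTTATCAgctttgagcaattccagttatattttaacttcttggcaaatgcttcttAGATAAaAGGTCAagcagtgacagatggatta
Gsta2, chr9:78347146-78347395, minus strand: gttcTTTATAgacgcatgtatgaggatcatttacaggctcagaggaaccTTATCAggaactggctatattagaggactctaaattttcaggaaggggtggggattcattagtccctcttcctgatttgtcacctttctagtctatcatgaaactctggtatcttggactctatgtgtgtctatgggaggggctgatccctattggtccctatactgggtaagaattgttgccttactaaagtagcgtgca

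The Ugt2b5 and Ugt2b36 windows were identical at 60.0% of aligned positions, against 52.4% for Ugt2b5 and Gsta2 and 49.3% for Ugt2b36 and Gsta2. Their longest common run was 24 bases, gataaaaggtcaagcagtgacaga, which began 28 bases before the start of Ugt2b5 and 31 bases before that of Ugt2b36. Of all 32817 promoters in the table, 3 held this run, and the third was that of Ugt2b37, another gene of the same cluster. The run contains AGGTCA, a motif added after these sequences had been read and found in 4604 of all promoters and in 8 members. The Ugt2b36 window also held 3 matches to AGATAA and 1 to TGATAA, and the Ugt2b5 window held neither. Over all promoters AGATAA was present in 9.99% and TGATAA in 7.95%, and 7 and 8 of the 45 member promoters held them. The paired motif of LXR, 2 AGGTCA half-sites with 4 bases between them, was present in 0.0152% of promoters and in no member's window. An exact match this rare is seldom met in 45 windows, so its absence does not show that members lack LXR sites. The core antioxidant response element, TGACNNNGC, was present in 10.2% of promoters and in 3 of 45 member promoters, those of Gsta3, Gstm5 and Gstm7. TATAAA occurred in 12.4%. A match describes letters in the window only. Members without an entry, Gsta4 among them, were not searched for these motifs.

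Libraries held 11.8 to 22.0 M reads, recovered from the normalized counts. In 5 libraries mitochondrially encoded genes took 15.6% to 32.6% of normalized counts, against 6.06% to 7.26% in the other 12. These 5 were control vehicle replicate 1, control GW3965 replicates 10 and 13, and Gata4LKO GW3965 replicates 17 and 18. Gata4, the targeted gene, had normalized counts of 128 to 183 in control and 137 to 234 in Gata4LKO livers with vehicle, and 164 to 258 and 159.9 to 259.9 with GW3965. The transcript was not lower in libraries labelled Gata4LKO, which exons the loxP sites flank is not stated, and Gata4LKO is used below as a label. For 8 libraries, the Gata4LKO vehicle and control GW3965 groups, the treatment label contradicts the title, and groups follow the title. By title, 11 of 14 LXR response genes rose with GW3965 in control livers and 5 of 14 in Gata4LKO livers, among them Scd2, a lipid desaturase, by 2.53 ± 0.20 (SE, adjusted p = 4.65e-06) and 2.38 ± 0.19 (SE, adjusted p = 5.16e-06) on the log2 scale.

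Per kb of exon, a few members carried most of the signal (the plot of levels by gene). As normalized counts per kb of annotated exon, mean ± SD over the 17 libraries, Ugt2b1 reached 8374 ± 2349 and Gstm1 8319.7 ± 2478, or 15.1% and 14.97% of the sum over all members. Ugt2b1 belongs to the steroid and xenobiotic UGT2B enzymes, and Gstm1 is the main mu-class transferase of mouse liver. Next came Ugt2b36 with 6518 ± 983, the alpha-class transferase Gsta3 with 5842 ± 1029 and Ugt2b5 with 5181 ± 894. Ugt2b1 and Gstm1 differed by far less than their SD over libraries. The length of a gene was that of all its annotated exons merged, and the order depends on it. Before division by length Gsta3 had the highest mean, 25375.5 normalized counts, against 21546.1 for Ugt2b1 and 12255 for Gstm1. Lower stood Ugt2a3 at 2624 ± 459 and Gstz1, the zeta-class maleylacetoacetate isomerase of tyrosine breakdown, at 1959 ± 168. The pi-class transferase Gstp1 reached 1822 ± 762 and the theta-class Gstt1 1391 ± 323. At the low end, the 4 untested members stayed below 10 normalized counts in each library.

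**Figure D1:**
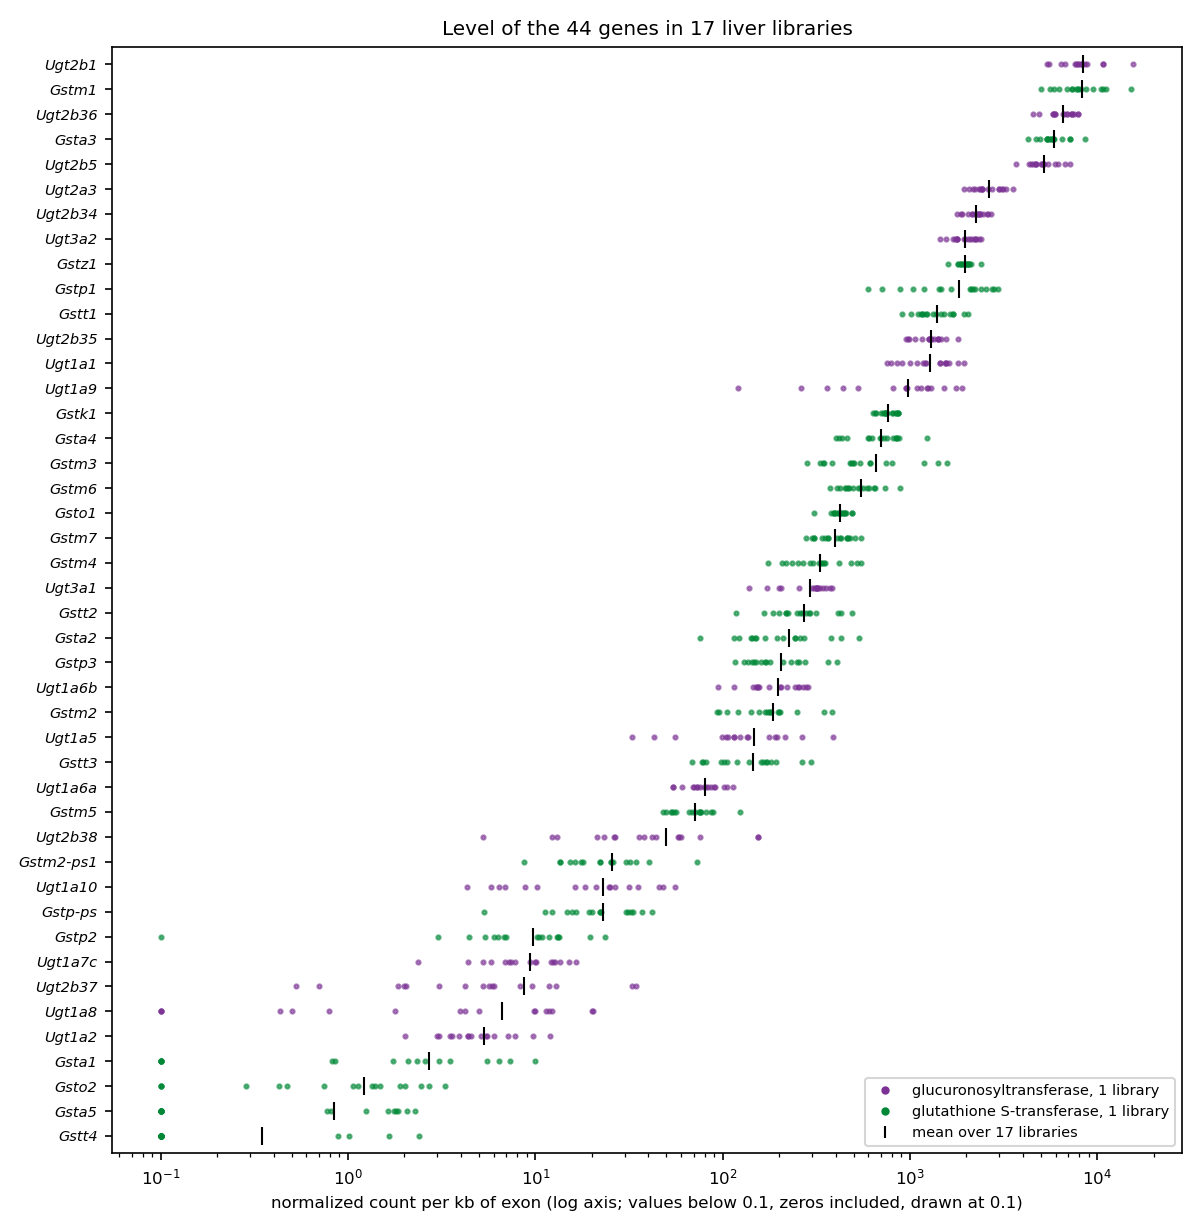
Normalized count per kb of exon (log axis) for the 44 members, one point per library and a tick at the mean over 17 libraries. Ugt2b1 and Gstm1 stand at the top with means of 8374 and 8320 per kb, and the points of Ugt2b37, Ugt2b38 and Ugt1a9 spread far more than those of Gstk1 or Gstz1.

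As sums over per-kb levels, UGTs made up 54.2% of the members' total in control vehicle livers, 60.1% in Gata4LKO vehicle, 54.9% in control GW3965 and 56.2% in Gata4LKO GW3965 livers. These shares depend on the same merged exon lengths. The UGT sum was 30139 ± 1938, 33881 ± 776, 31404 ± 4128 and 30009.7 ± 3242 per kb in that order (SD). The GST sum was 25643 ± 4502, 22495 ± 1945, 25608 ± 1961 and 23663 ± 5491 per kb. Group ranges overlapped for the GST sum in each comparison of 2 groups. For the UGT sum the Gata4LKO vehicle libraries, 32759 to 34551, lay above the control vehicle libraries, 27535 to 31886, a difference that was not tested. Together the members took 0.628% to 0.958% of all normalized counts, and the 5 libraries rich in mitochondrial transcripts gave 0.628% to 0.764%. Mitochondrial counts are part of that total, and their part in the lower share was not tested.

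GW3965 was followed by higher Gsta4 mRNA. Gsta4 (chromosome 9, 78182774 to 78209349, mm10, plus strand) encodes the alpha-class transferase specialised for 4-hydroxynonenal, a product of lipid peroxidation. Its normalized counts were 884, 529, 548 and 509 in control vehicle libraries 1 to 4, against 951, 1065, 1076 and 1109 in control GW3965 libraries 9, 10, 12 and 13. They were 761, 759, 581 and 795 in Gata4LKO vehicle libraries 5 to 8 and 923, 879, 1030.0, 1567 and 1067 in Gata4LKO GW3965 libraries 14 to 18. All GW3965 libraries lay above all vehicle libraries within each genotype, and control vehicle 1 and Gata4LKO GW3965 17 were the highest of their groups. Averaged over the 2 genotypes, Gsta4 rose by 0.69 ± 0.13 (SE) on the log2(normalized count + 1) scale, 1.61-fold (95% interval 1.34 to 1.94, limma adjusted p = 0.00728). This call held when any 1 of the 17 libraries was left out (adjusted p 0.000892 to 0.0215) and without the 5 mitochondria-rich libraries (0.66 ± 0.09 (SE), adjusted p = 0.00335).

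In control livers alone the Gsta4 rise was 0.80 ± 0.18 (SE), 1.74-fold (1.33 to 2.28), with an adjusted p of 0.04996, just inside the threshold of 0.05. The call was lost with a pseudocount of 0.5 (adjusted p = 0.0502), without the filter on low values (0.0661) and with edgeR (0.0709). Of 8 fits that each left out 1 library, only that without control vehicle 1 kept the call, and adjusted p ran from 0.00906 to 0.179. In Gata4LKO livers the difference was 0.57 ± 0.17 (SE), adjusted p = 0.210, and the 2 genotypes' responses differed by -0.23 (-0.76 to 0.30), adjusted p = 0.997. Without the mitochondria-rich libraries that difference between responses was -0.55 ± 0.17 (SE), adjusted p = 0.502. In the authors' deposited table Gsta4 had an adjusted p of 0.0120 in control and 0.0906 in Gata4LKO livers.

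Gsta2, a neighbour of Gsta4 on chromosome 9 and an alpha-class transferase known to be induced by electrophiles, rose as well. Its normalized counts were 229, 89.1, 169 and 136 in control vehicle and 320.1, 306, 287 and 448 in control GW3965 libraries, with no overlap. They were 246, 166, 144 and 176 in Gata4LKO vehicle and 176, 199, 287, 632 and 507 in Gata4LKO GW3965 libraries, which did overlap. Averaged over genotypes Gsta2 rose by 1.00 ± 0.24 (SE), 1.998-fold (1.40 to 2.85), adjusted p = 0.0452. The mitochondria-rich libraries held the highest Gsta2 values of 3 groups, with a range of 229 to 632 against 89.1 to 320.1 in the other 12. Without them the difference was 0.75 ± 0.19 (SE), adjusted p = 0.0715, without the filter on low values adjusted p was 0.0543, and 12 of 17 fits that left out 1 library lost the call (adjusted p 0.0203 to 0.0993). The exceptions were the fits without control vehicle 1, Gata4LKO vehicle 5, or Gata4LKO GW3965 14, 15 or 17. In Gata4LKO livers Gsta2 differed by 0.82 ± 0.34 (SE), adjusted p = 0.355, with the 2 highest values in mitochondria-rich replicates 17 and 18. Without the mitochondria-rich libraries that difference was 0.26 ± 0.24 (SE), adjusted p = 0.728, against 1.25 ± 0.28 (SE), adjusted p = 0.0832, in control livers, and the difference between responses was -0.98 ± 0.37 (SE), adjusted p = 0.601. Gsta2 shares 17.5% of its 50-base exon words with Gsta5, Gsta1 and the gene Gm3776, so its counts are less certain than those of Gsta4, which shares 0.0%. Ranked by level, Gsta2 and Gsta4 had the same 5 lowest libraries and 4 of the 5 highest in common, which is a description only.

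**Figure D2:**
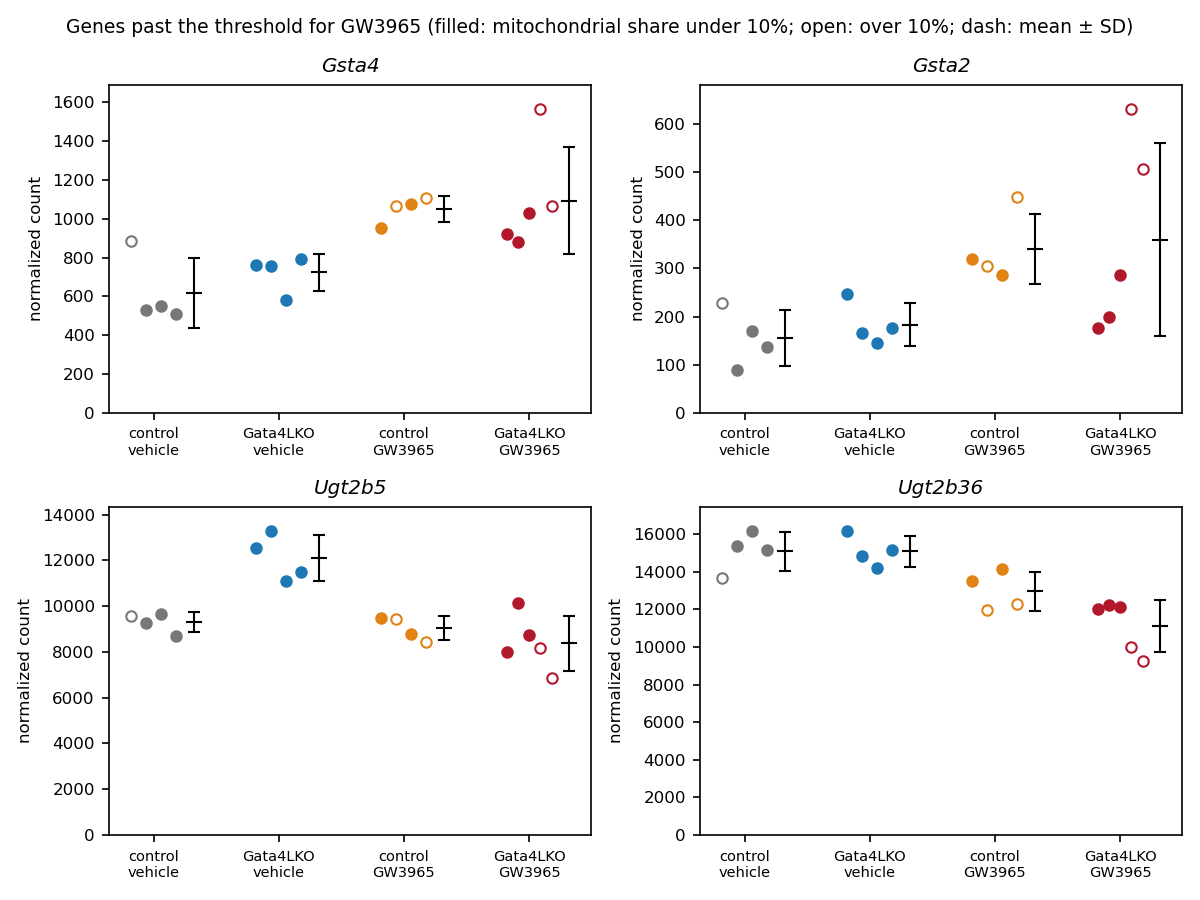
Normalized counts of Gsta4, Gsta2, Ugt2b5 and Ugt2b36 in each library by group, with open circles for the 5 libraries with over 10% mitochondrial counts and a dash for the mean ± SD. Gsta4 lies between 951 and 1109 in control GW3965 livers against 509 to 884 with vehicle, and Ugt2b5 stands highest in Gata4LKO vehicle livers at 11078 to 13277.

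Among the UGTs, Ugt2b5 fell with GW3965 in Gata4LKO livers. Ugt2b5 (chromosome 5, 87124960 to 87140318, mm10, minus strand) and its neighbour Ugt2b36 (chromosome 5, 87065927 to 87092555, minus strand) encode UGT2B enzymes, a subfamily that conjugates steroids and drugs. Ugt2b5 stood at 12536, 13277, 11078 and 11504 normalized counts in Gata4LKO vehicle and 8009.5, 10154, 8728, 8174 and 6838 in Gata4LKO GW3965 libraries. The groups did not overlap, and the difference was -0.54 ± 0.11 (SE), 0.689-fold (0.588 to 0.807), adjusted p = 0.0444. Control livers gave 9579.5, 9267, 9670.0 and 8673 with vehicle and 9492, 9436, 8785 and 8450.0 with GW3965, ranges that overlapped, with a difference of -0.04 (-0.28 to 0.20). The Gata4LKO vehicle libraries that set this fall were themselves the highest of the 4 groups, and the same libraries enter the vehicle comparison of genotypes, where Ugt2b5 differed by 0.38 ± 0.11 (SE), adjusted p = 0.438. The call was lost without the filter on low values (adjusted p = 0.101), with edgeR (0.0573), without the mitochondria-rich libraries (-0.44 ± 0.10 (SE), adjusted p = 0.0988) and in 8 of 9 fits that left out 1 library, all but that without Gata4LKO GW3965 15 (adjusted p 0.0122 to 0.152). In the authors' deposited table the adjusted p was 0.000391.

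Ugt2b36 fell with GW3965 averaged over the genotypes. It had 13671, 15381, 16162 and 15139.8 normalized counts in control vehicle, 13495, 11946, 14168 and 12262 in control GW3965, 16141, 14842, 14185 and 15152 in Gata4LKO vehicle and 11997, 12215, 12126, 9989 and 9276 in Gata4LKO GW3965 libraries. The Gata4LKO groups did not overlap and the control groups did. Averaged over genotypes Ugt2b36 fell by 0.33 ± 0.08 (SE) on the log2 scale, 0.794-fold (0.708 to 0.890), adjusted p = 0.0363. Within genotypes the differences were -0.22 ± 0.11 (SE) in control, adjusted p = 0.627, and -0.45 ± 0.11 (SE) in Gata4LKO livers, adjusted p = 0.0915. The authors' deposited table gave 0.00467 for Gata4LKO livers. Mitochondria-rich libraries ran from 9276 to 13671 against 11997 to 16162 in the rest, and without them the averaged difference was -0.24 ± 0.06 (SE), adjusted p = 0.0577. Without the filter on low values adjusted p was 0.119. Leaving out 1 library ended the call in 10 of 17 fits (adjusted p 0.0263 to 0.0886). The 7 that kept it left out control vehicle 1, control GW3965 9 or 12, or Gata4LKO GW3965 14, 15, 16 or 17. Ugt2b37, the third gene with the shared run, ranged from 0.994 to 65.2 normalized counts and differed by -1.02 (-2.27 to 0.23) averaged over genotypes, adjusted p = 0.421.

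Counted over the 40 tested members, 1 rose and 0 fell with GW3965 in control livers, where 0.792% of 13379 genes were called and 0.605% rose. In Gata4LKO livers 0 rose and 1 fell, where 0.247% were called and 0.0448% fell. Averaged over genotypes 2 rose and 1 fell, where 1.78% were called, 1.34% higher and 0.441% lower. The authors' deposited table called 1 of 40 members, Gsta4, in control livers and 2 of 40, Ugt2b5 and Ugt2b36, in Gata4LKO livers, where that table called 1.62% and 1.33% of genes. At an unadjusted limma p under 0.05 the counts were 6, 9 and 10 of 40 members, against 8.96%, 11.95% and 15.32% of all genes. In control livers Gsta2, Gsta4 and Ugt2b35 lay wholly above vehicle (3.13% of genes did) and Ugt3a2 wholly below (2.71%). In Gata4LKO livers Gsta4 lay above (2.91%), and Ugt2b5, Ugt2b36 and Gstp-ps below (2.34%).

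By family, signs differed most in Gata4LKO livers (the plot of differences by gene). There 4 of 19 UGTs had a positive difference with GW3965, with a median of -0.45, and 15 of 21 GSTs did, with a median of 0.08, against -0.0049 over all genes. In control livers 12 of 19 UGTs and 13 of 21 GSTs were positive, with medians of 0.22 and 0.05. Without the mitochondria-rich libraries the UGT median was 0.02 in control livers, with 10 of 19 positive, and -0.26 in Gata4LKO livers, with 4 of 19 positive. The GST medians were then 0.04 and 0.11, with 13 and 14 of 21 positive. Most single members did not pass the test, and the medians describe these libraries. Of the 19 UGTs, 9 are Ugt1a genes that share their last exons, so their signs are not independent. Some UGTs had few counts, such as Ugt1a8 with a mean of 14.7 normalized counts.

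**Figure D3:**
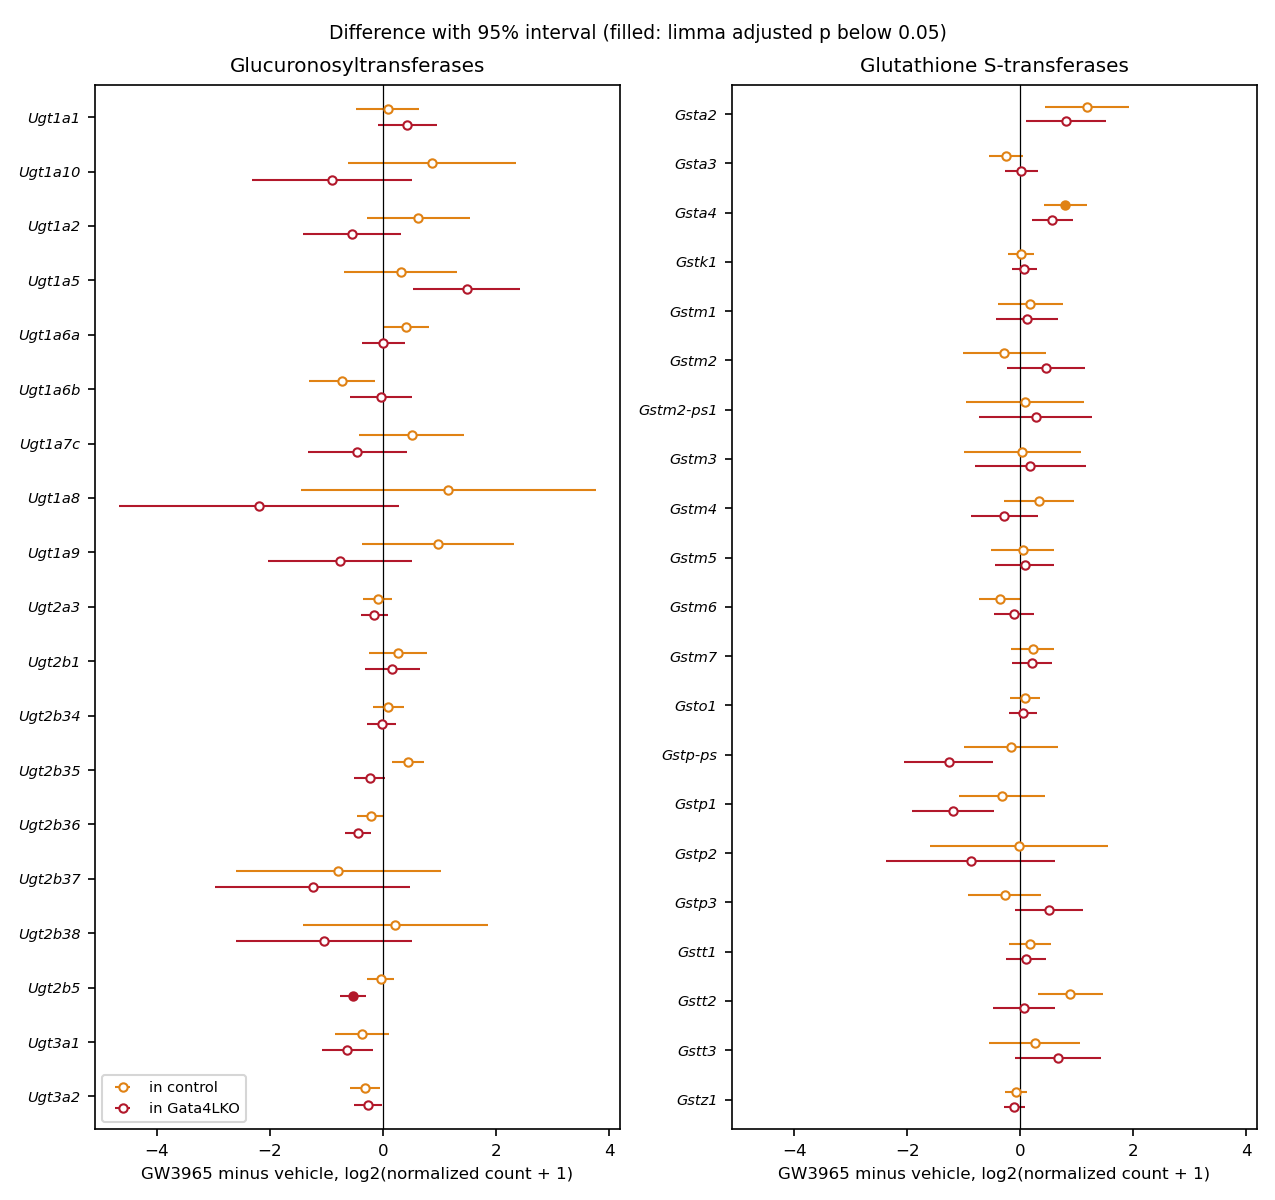
GW3965 minus vehicle on the log2(normalized count + 1) scale with 95% intervals for 19 UGTs and 21 GSTs, in control (orange) and Gata4LKO livers (red), filled where limma's adjusted p was below 0.05. Only Gsta4 in control and Ugt2b5 in Gata4LKO livers are filled, and the Ugt1a8 interval in Gata4LKO livers spans -4.68 to 0.28.

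By class, the remaining GSTs showed the following with GW3965. Gstp1, the pi-class enzyme, had 1839, 4241, 3931 and 3275 normalized counts in control vehicle and 2553, 2262, 4353 and 1607 in control GW3965 libraries. It had 3686, 3220.5, 3347 and 4579 in Gata4LKO vehicle and 2216, 3429.9, 1375, 929 and 1102 in Gata4LKO GW3965 libraries, 4 of which lay below all 4 vehicle libraries. The difference in Gata4LKO livers was -1.19 ± 0.34 (SE), adjusted p = 0.176, and -0.75 ± 0.26 (SE), adjusted p = 0.308 without the mitochondria-rich libraries. Those 5 libraries held 929 to 2262 counts and the other 12 held 1375 to 4579, ranges that overlapped. None of the 5 was a Gata4LKO vehicle library, and the part of the mitochondrial share in the difference was not tested. Leaving out Gata4LKO GW3965 15, the highest of its group, brought Gstp1 past the threshold at an adjusted p of 0.0421. Gstp1 shares 27.7% of its 50-base words with Gstp2 and the pseudogene Gstp-ps, which shares 60.0% with them, so reads may have been split between the 3.

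Gstm1 had 11304, 8660.3, 15376 and 11632 normalized counts in control vehicle, 10151, 12818, 13900.1 and 15854 in control GW3965, 11658, 10806, 9171 and 12108 in Gata4LKO vehicle and 8232, 7362, 22159, 16329 and 10814 in Gata4LKO GW3965 libraries. The groups overlapped throughout, and the averaged GW3965 difference was 0.15 (-0.24 to 0.55), adjusted p = 0.707. The other 7 mu-class members had averaged differences between -0.23 (Gstm6) and 0.22 (Gstm7), and 0 of 8 were called. Gstz1 stood at 9928, 10529, 12164 and 10719 in control vehicle, 10047, 10145, 10557 and 10329.7 in control GW3965, 9565, 9487, 9971 and 10226 in Gata4LKO vehicle and 9841, 9133, 9546, 9207 and 8079 in Gata4LKO GW3965 libraries. Its averaged GW3965 difference was -0.09 (-0.23 to 0.05), adjusted p = 0.529. Gstt2, a theta-class transferase singled out after its values were seen, gave 774, 489, 687 and 1098 with vehicle and 2037, 1030.0, 1784 and 903 with GW3965 in control livers, a difference of 0.89 ± 0.27 (SE), adjusted p = 0.203. Without the mitochondria-rich libraries that became 1.41 ± 0.27 (SE), adjusted p = 0.0425. Averaged over genotypes Gstt2 differed by 0.48 ± 0.19 (SE), adjusted p = 0.233, and by 0.87 ± 0.17 (SE), adjusted p = 0.0309, without those libraries.

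Ugt2b1, the most abundant UGT per kb, showed no separation. Its normalized counts were 19420.5, 21362, 19804 and 13853 in control vehicle, 14256, 40037, 20994 and 20217 in control GW3965, 16365, 21186, 22666 and 21205 in Gata4LKO vehicle and 22179, 27435, 20280.0, 27696 and 17329 in Gata4LKO GW3965 libraries. Control GW3965 10 was the highest of all 17, and the averaged GW3965 difference was 0.22 (-0.14 to 0.57), adjusted p = 0.541. The UGT3A genes Ugt3a1 and Ugt3a2, chosen after their values were seen, differed by -0.50 ± 0.16 (SE), adjusted p = 0.129, and -0.29 ± 0.09 (SE), adjusted p = 0.102, averaged over genotypes. Ugt3a1 ran from 369 to 846 counts in the mitochondria-rich libraries and from 683 to 1029 in the rest. Without those libraries the differences were -0.16 ± 0.08 (SE), adjusted p = 0.424, for Ugt3a1 and -0.23 ± 0.09 (SE), adjusted p = 0.292, for Ugt3a2. Ugt3a2 had 6919, 6673, 6924 and 6499 counts in control vehicle and 5368, 5546, 5491 and 5245 in control GW3965 libraries, which did not overlap.

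Next, genotype was compared. With vehicle, 0 of 40 members were called by limma, 0 by edgeR and 0 by DESeq2, and 7 had an unadjusted limma p under 0.05, where limma called 0.0149% of genes and 6.15% had such a p. With GW3965 the counts were 0, 0, 0 and 6, where 0.0598% were called and 6.47% had such a p. Averaged over treatments they were 0, 0, 1 and 5, where 0.224% were called and 7.19% had such a p. The authors' deposited table called 0 of 34 members with vehicle and 0 of 41 with GW3965, against 0.434% and 0.510% of its genes.

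Closest to the threshold was Ugt2a3, a UGT2A enzyme of liver and intestine (chromosome 5, 87324972 to 87337195, minus strand). Its normalized counts were 4596, 5489, 4710.1 and 4997 in control vehicle and 6289, 5792, 6853 and 7466 in Gata4LKO vehicle libraries. With GW3965 they were 4371, 4090.2, 5106 and 4955 in control and 6666, 6532, 5134, 6293 and 5112 in Gata4LKO libraries. Within each treatment all Gata4LKO libraries lay above all control libraries, a separation in this direction that 3.00% of genes showed with vehicle and 0.822% with GW3965. Ugt2b5 and Ugt2b35 were also wholly above control with vehicle. Wholly below control lay Gstp3 with vehicle (3.58% of genes did) and Gstz1 with GW3965 (1.14%). The averaged difference was 0.38 ± 0.08 (SE), 1.31-fold (1.16 to 1.47), adjusted p = 0.0689 by limma. DESeq2 called it, and so did limma once Gata4LKO GW3965 16 was left out (adjusted p = 0.0480). Without the mitochondria-rich libraries Ugt2a3 differed by 0.38 ± 0.11 (SE), limma adjusted p = 0.251, with vehicle. With GW3965 the difference was then 0.36 ± 0.14 (SE), adjusted p = 0.613.

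Other members differed in direction. Gsta3, an alpha-class transferase active against aflatoxin epoxide, had 23247, 31178, 37438 and 30874 counts in control vehicle and 24148, 20429, 21423 and 25050.3 in Gata4LKO vehicle libraries, and 28114, 23372, 25203 and 25018 and 24706, 23747, 25366, 23478 and 18595 with GW3965. Only control vehicle 1, a mitochondria-rich library, overlapped the Gata4LKO vehicle range. The vehicle difference was -0.42 ± 0.15 (SE), adjusted p = 0.569, and -0.54 ± 0.10 (SE), adjusted p = 0.0623 without the mitochondria-rich libraries. Gstt1, a theta-class transferase that acts on small halogenated compounds, had 2331, 1764, 2582 and 2489.7 in control and 1859, 1884, 1547 and 1693 in Gata4LKO libraries with vehicle. With GW3965 it had 3134, 1799, 2589.8 and 2950.4 and 1745, 1391, 2038, 2102 and 2244, and the ranges overlapped under both treatments. Only control GW3965 10, a mitochondria-rich library, overlapped the Gata4LKO GW3965 range. The averaged Gstt1 difference was -0.41 ± 0.12 (SE), adjusted p = 0.265. Without the mitochondria-rich libraries it was -0.55 ± 0.12 (SE), adjusted p = 0.0772. The difference with GW3965 was then -0.74 ± 0.18 (SE), adjusted p = 0.277, and with vehicle -0.37 ± 0.15 (SE), adjusted p = 0.422.

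**Figure D4:**
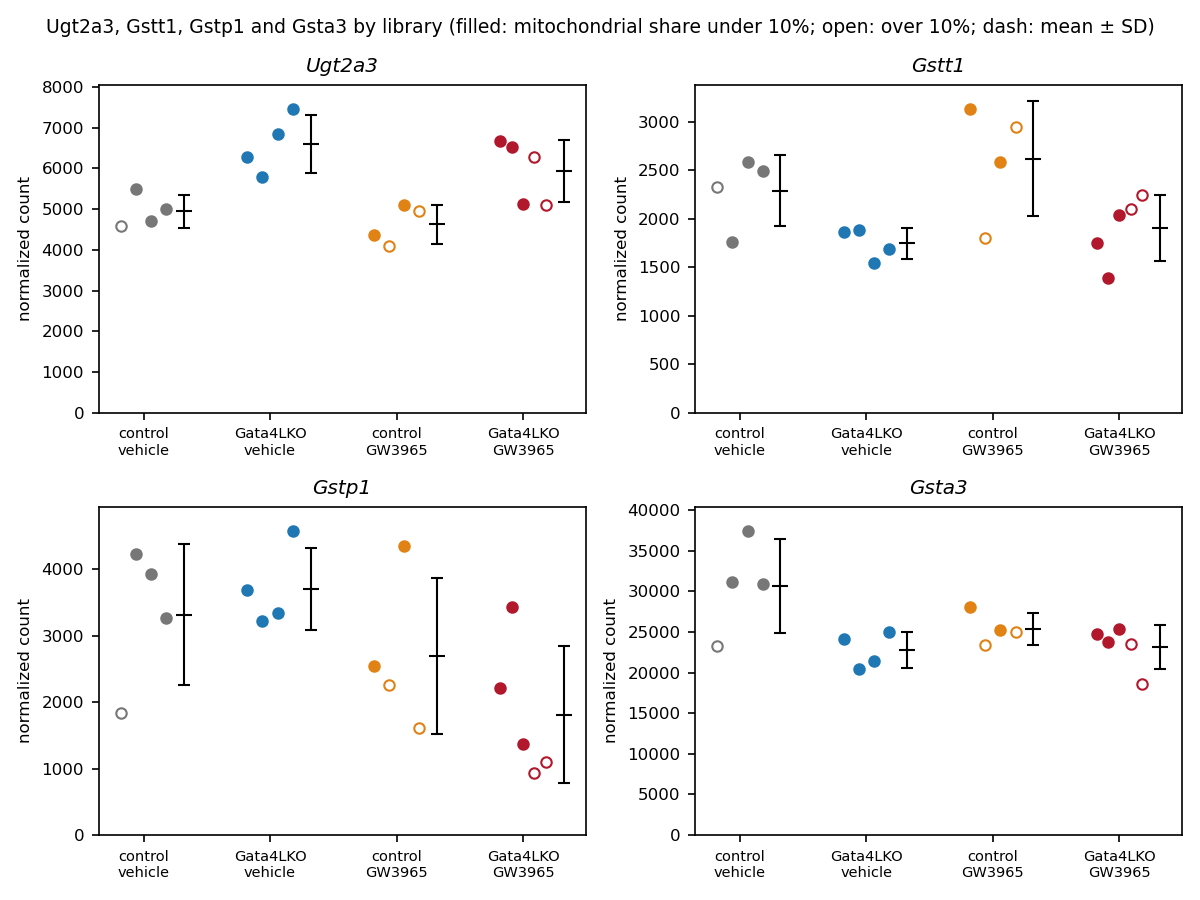
Normalized counts of Ugt2a3, Gstt1, Gstp1 and Gsta3 in each library by group, with open circles for the 5 libraries with over 10% mitochondrial counts and a dash for the mean ± SD. Ugt2a3 lies at 5792 to 7466 in Gata4LKO vehicle livers against 4596 to 5489 in controls, and Gstp1 is lowest, 929, in Gata4LKO GW3965 replicate 17.

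Ugt2b35, another UGT2B gene, had genotype differences of opposite sign with vehicle and with GW3965, neither of which was called. It had 3179.7, 4264, 4263 and 3269 normalized counts in control vehicle and 4508, 4364, 4728 and 4915 in Gata4LKO vehicle libraries, which did not overlap. With GW3965 it had 5206, 6023, 4741 and 4339 in control and 3589.8, 4249, 4756, 3875 and 3325 in Gata4LKO libraries, which did. The 2 differences were 0.32 ± 0.14 (SE) and -0.36 ± 0.13 (SE), adjusted p = 0.764 and 0.581. Tested directly, the genotypes' responses to GW3965 differed by -0.68 ± 0.19 (SE) for Ugt2b35, adjusted p = 0.514, and by -0.50 ± 0.16 (SE) for Ugt2b5, adjusted p = 0.734. For Gstt2 the value was -0.82 ± 0.38 (SE), adjusted p = 0.997. No member was called in this interaction by limma, edgeR or DESeq2, or in the authors' deposited table (0 of 40, against 0.190% of its genes), and 3 had an unadjusted limma p under 0.05, where 0.0149% of genes were called and 4.65% had such a p.

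Some members varied widely within groups (the plot by library). Ugt1a9 ran from 264 to 4135 normalized counts, 15.7-fold, with 2701, 575, 2507 and 957 in control vehicle and 3829, 3309.9, 2087 and 794 in Gata4LKO vehicle libraries. It gave 4135, 2729, 2376 and 2078 in control GW3965 and 1782, 264, 2099, 1154 and 2818 in Gata4LKO GW3965 libraries. Ugt1a10 spanned 12.9-fold and shared 4 of its 5 lowest and 4 of its 5 highest libraries with Ugt1a9, whereas Ugt1a1, the bilirubin enzyme, shared 0 and 0. Ugt1a1 itself ran from 1668 to 4296. Among its 5 highest were Gata4LKO GW3965 15, control vehicle 4 and Gata4LKO vehicle 8, which were among the 5 lowest of Ugt1a9. Among its 5 lowest were Gata4LKO vehicle 5 and 6 and control GW3965 10, which were among the 5 highest of Ugt1a9. The 9 Ugt1a genes on chromosome 1 join their own first exon to a shared set of last exons, and 50.3% to 60.6% of their exon bases overlap a neighbour on the same strand. The sources used here do not say how the authors' counting assigned such reads, so these 9 values are uncertain. Ugt1a9, Ugt1a10, Ugt1a1 and the genes of the next paragraph were chosen for this pattern after their values were seen.

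Ugt2b38 ranged from 9.94 to 292 normalized counts, with 292.5 in Gata4LKO vehicle 6 and 291.7 in Gata4LKO GW3965 15. Those libraries also held the 2 highest values of Ugt2b37, 65.2 and 62.1, and the 2 genes share part of their 50-base words. Gstm3, a mu-class gene, ranged from 369 to 2054 and shared 3 of its 5 lowest and 4 of its 5 highest libraries with Gstm1, of which it shares 5.2% of 50-base words. At the even end Gstk1, the mitochondrial and peroxisomal kappa-class transferase, spanned 1.37-fold from 929 to 1272, and Gstz1 spanned 1.51-fold.

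**Figure D5:**
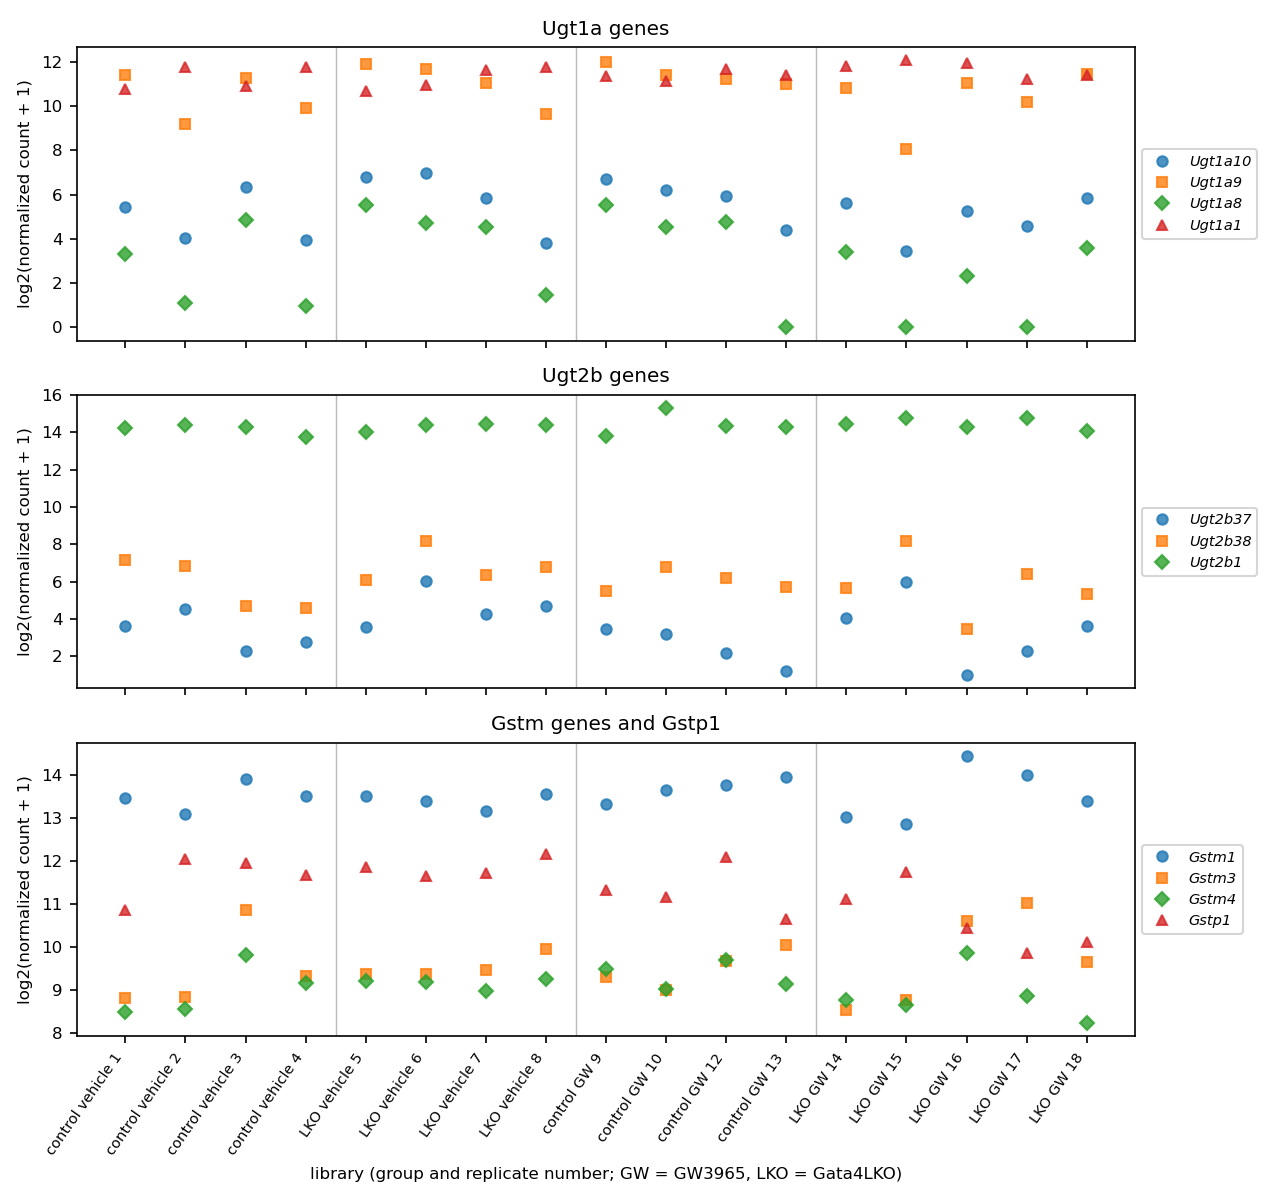
log2(normalized count + 1) of selected UGT1A, UGT2B, mu-class and pi-class genes in each of the 17 libraries, ordered by group. Ugt1a9 and Ugt1a10 dip together in control vehicle 2 and 4, Gata4LKO vehicle 8 and Gata4LKO GW3965 15, while Ugt1a1 does not.

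Genes that serve these enzymes were counted by list. None of 8 genes of UDP-glucuronate supply was called in any of the 7 comparisons. Ugdh, which makes UDP-glucuronate, had 2921 ± 672 normalized counts (SD) in control and 2201 ± 123 in Gata4LKO vehicle livers, and 3124 ± 475 and 1906 ± 433 with GW3965. Its averaged genotype difference was -0.56 ± 0.12 (SE), adjusted p = 0.0708. Ugp2, which makes UDP-glucose, differed by -0.57 ± 0.17 (SE) with GW3965 averaged over genotypes, adjusted p = 0.107. None of 25 genes of glutathione synthesis, recycling and breakdown was called, and their median GW3965 difference averaged over genotypes was -0.04. The smallest p among them there was that of Cth, which makes cysteine from cystathionine, at -0.50 ± 0.15 (SE), adjusted p = 0.0967. None of 4 membrane-bound glutathione transferases and related proteins was called either.

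Of 9 conjugate exporters, 1 rose with GW3965 in control livers and 2 averaged over genotypes. Abcc4, an exporter of glucuronide and other organic anions at the sinusoidal side, had 39.7 ± 1.58 normalized counts (SD) in control vehicle and 137 ± 54.8 in control GW3965 livers, a rise of 1.66 ± 0.33 (SE) on the log2 scale, adjusted p = 0.0233. Averaged over genotypes Abcc4 rose by 1.43 ± 0.22 (SE), adjusted p = 0.00201, and Abcb1a, a multidrug exporter, by 1.32 ± 0.27 (SE), adjusted p = 0.0145. Among 25 NRF2-linked genes outside the families only Abcc4 was called, in those 2 comparisons.

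Of 22 genes of the CAR and PXR axis, Ces2a, a carboxylesterase, rose in control livers with GW3965 by 0.73 ± 0.12 (SE), adjusted p = 0.0105. It was lower in Gata4LKO than in control livers with GW3965 by -0.92 ± 0.12 (SE), adjusted p = 0.00246, and averaged over treatments, where Aldh1a7 was also lower. Those 2 Ces2a comparisons share the control GW3965 libraries. Aldh1a1, a retinal dehydrogenase, was lower with GW3965 averaged over genotypes by -0.51 ± 0.11 (SE), adjusted p = 0.0176. None of 9 genes of the AHR axis was called. Of 13 male-biased liver genes none was called with GW3965, and in Gata4LKO livers 0 of 13 had a positive difference, with a median of -0.66. Selenbp2 of that list was lower in Gata4LKO livers averaged over treatments. Of 6 female-biased genes tested, Acot3 rose with GW3965 averaged over genotypes.

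Cell type markers were read from the same libraries, in which fewer cells of a type and less RNA per cell cannot be told apart. Hepatocyte markers were abundant in all libraries. With vehicle 0 of 8 had a positive genotype difference, and their summed normalized counts were 1379510 to 1599070 in Gata4LKO and 1775990 to 1916060 in control libraries. Most of each sum was Alb, with means of 1084010 in Gata4LKO and 1377920 in control vehicle livers. All 12 Kupffer cell and macrophage markers were higher on average in Gata4LKO than in control vehicle livers, with sums of 5195 to 6030 against 3345 to 4295, beside the Ugt2a3 and Ugt2b5 values above. The same 12 were higher on average with GW3965 in control livers, with sums of 5117 to 7799 beside the Gsta4 rise, and Cd5l, an LXR-responsive macrophage gene, was called there. All 10 stellate cell and fibroblast markers were higher on average with GW3965 in Gata4LKO livers, with sums of 5131 to 7522 against 4043 to 5399, beside the lower Ugt2b5. All 10 sinusoidal endothelial markers were higher on average with GW3965 in both genotypes, with medians of 0.20 in control and 0.40 in Gata4LKO livers on the log2 scale. Their sums were 5813 to 10086 with GW3965 against 5721 to 6678 with vehicle in control livers, and 6260 to 9544 against 6035 to 7146 in Gata4LKO livers. Averaged over genotypes, where Gsta4, Gsta2 and Ugt2b36 were called, 10 of 10 sinusoidal, 10 of 10 stellate and 11 of 12 Kupffer cell markers were higher with GW3965, with medians of 0.29, 0.24 and 0.32. In control livers alone 6 of 10 stellate markers were higher with GW3965, with a median of 0.02. In Gata4LKO livers alone 7 of 12 Kupffer cell markers were, with a median of 0.22. Between genotypes with GW3965, 7 of 12 Kupffer cell markers were higher in Gata4LKO livers, with a median of 0.15. Of the 10 markers listed for blood, adipose and intestine, 7 had values. No marker with values was at 0 in all libraries. The part of these cell types in the results was not tested. No gene of the hepatocyte, pericentral, periportal, sinusoidal endothelial, stellate cell, cholangiocyte or lymphocyte lists was called in any comparison. Of the Kupffer cell list only Cd5l was called, with GW3965 in control livers and averaged over genotypes. Of the blood, adipose and intestine list Alas2, of red cell haem synthesis, was lower with GW3965 averaged over genotypes.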

How the data were processed

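Liver mRNA of 17 libraries was measured by RNA sequencing, and groups were taken from the sample titles. The series text gives another age than the sample labels, which are followed here. The submitters' processing notes name FastQC, STAR 2.6.0c, the build mm10 and DESeq2, while the read counter, annotation and strand setting are not stated there. The authors deposited a table of normalized counts per gene, a signal that divides reads by a size factor for each library, and tables of log2 fold changes with p-values for 5 comparisons, per the file headers. All values came out as whole reads to within 0.05 read (largest distance 0.00101), which gave depths of 11.8 to 22.0 M reads. No column of samples was left unused (0).

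From the deposited values, log2(normalized count + 1) was tested with limma 3.58.1 in R 4.3.3, 1 coefficient per group over all 17 libraries, two-sided, with Benjamini-Hochberg adjustment over 13379 genes and a threshold of 0.05. A fold on this scale understates the change of low genes. edgeR 4.0.16 and DESeq2 1.42.0 on the recovered reads were alternatives, as were TMM scaling, pseudocounts of 0.5 and 5, no filter on low values (10 normalized counts in 4 libraries), totals without mitochondrial genes, leaving out the 5 mitochondria-rich libraries, and leaving out each library in turn. The fit was tested on simulated data. Libraries of a group differed by more than sampling noise. Levels per kb used the merged exons of all GENCODE M21 transcripts of a gene. All 44 members matched there, and shared sequence was counted in 50-base words. Promoter windows came from RefSeq (GRCm38.p6) and were read in Python 3.11.15.

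The families and the gene lists were chosen with earlier results of these data known, while membership in the families followed gene symbols alone. Values in each library are given for members called in any of 7 comparisons, the 3 with the smallest p in each pairwise comparison, and the 3 UGTs and 4 GSTs with the highest level per kb. List genes are named where called, with some of the 2 with the smallest p.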

Additional observations from a re-analysis of the deposited data

Results flagged for a closer look

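In 12 named members over 4 groups, 48 sets of values were screened for 1 library far from the rest of its group, and 4 were found. Chance alone flags about 1 in 20 such sets. Gsta4 had its highest control vehicle value, 884.301 normalized counts, in replicate 1, which is one of the mitochondria-rich libraries. Its lowest Gata4LKO vehicle value, 581.171, was in replicate 7. Its highest Gata4LKO GW3965 value, 1566.63, was in replicate 17, also mitochondria-rich. Gsta3 had its lowest Gata4LKO GW3965 value, 18595 normalized counts, in replicate 18, another mitochondria-rich library. The part of the mitochondrial share in these values was not tested, and the averaged Gsta4 difference held without those libraries.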

How the results depend on the processing

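Counts of members called depended on the settings. With GW3965 in control livers the count was 1, and it was 0 with a pseudocount of 0.5, 0 without a filter on low values, 0 with edgeR, and 2 (Gstt2, Gsta4) without the mitochondria-rich libraries. In Gata4LKO livers it was 1, and it was 0 without a filter, 0 with edgeR, 0 without the mitochondria-rich libraries and 2 with DESeq2. Averaged over genotypes it was 3, 1 without a filter, 5 with DESeq2, and 2 (Gsta4, Gstt2) without the mitochondria-rich libraries, where Gsta2 and Ugt2b36 were lost and Gstt2 was gained. For genotype averaged over treatments it was 0, and 1 (Ugt2a3) with DESeq2. In the remaining 3 comparisons it was 0 under each alternative. The causes were not tested. Leaving out 1 library at a time gave 0 to 1 members for GW3965 in control livers, 0 to 2 in Gata4LKO livers, 1 to 5 averaged over genotypes and 0 to 1 for genotype averaged over treatments, and Gsta4 was the member kept in all 17 averaged fits. No named difference changed sign under any alternative run.

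Over all genes, DESeq2 called 50 against 2 for genotype with vehicle, 80 against 8 with GW3965, 228 against 106 and 195 against 33 for GW3965 in control and Gata4LKO livers, 26 against 2 for the interaction, and 527 against 238 and 129 against 30 for the averages. Without a filter 57 were called for GW3965 in control livers. Without the mitochondria-rich libraries 14, 64, 22 and 56 were called for genotype with vehicle, GW3965 in control, GW3965 in Gata4LKO livers and genotype averaged. edgeR called 5 for genotype with GW3965. For the interaction edgeR called 0 and the fit without the mitochondria-rich libraries 1. Leaving out 1 library gave 0 to 3, 2 to 21, 22 to 109, 6 to 78, 0 to 9, 142 to 335 and 9 to 57 in the order with vehicle, with GW3965, control, Gata4LKO, interaction, GW3965 averaged and genotype averaged.

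No paired analysis was possible because the groups share no replicate numbers. With 4 or 5 libraries a group, small differences stay within the intervals given. Members with few reads, such as Ugt1a8, have intervals that span many fold.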
